A study of Mus musculus with 27 samples.

Results

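The 97 snoRNA entries described here are classed as small nucleolar RNA by the deposited table. The mouse annotation knows them by a predicted-gene number, a name starting with Gm. They were taken by name and class from a table of 1013 small RNA entries, of which 239 are snoRNAs and 115 are snoRNAs with a Gm name. The 18 Gm snoRNAs in 3 regions of chromosomes 1, 12 and 19 were left out, and the rule itself used no measured value. The study sequenced small RNA of 3 mouse cell types, each separated into chromatin, cytoplasm and the soluble part of the nucleus (nucleoplasm), with 3 libraries for each of the 9 combinations. mESC stands for E14 embryonic stem cells, a line held with LIF, mNPC for a line of neuronal progenitors held with EGF and FGF, and mCtx for neurons taken from the cortex and cultured for 5 days. No group carried a further genotype or treatment. mESC and mNPC are 1 line each, and mCtx is a primary culture that can hold other brain cells. The 3 libraries of a group are labelled as biological replicates, but no separate cultures are named, so a p-value here rests on a spread between libraries that may be technical.

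snoRNAs are nuclear guide RNAs that mostly lie in introns of other genes and are trimmed from the spliced intron. Box C/D snoRNAs carry a C box near the 5′ end and a D box near the 3′ end, bind fibrillarin, Nop56, Nop58 and Snu13, and direct 2′-O-methylation of ribosomal and spliceosomal RNA. Box H/ACA snoRNAs end in an ACA triplet, bind dyskerin, and direct pseudouridylation. Both kinds work in the nucleolus or the related Cajal body, and their genes often sit in hosts that make the ribosome or the translation machinery.

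All 97 entries lie at the position of a gene in the GENCODE M21 annotation of the GRCm38 genome, on 19 chromosomes. A host gene on the same strand holds 84 of them, in 58 distinct hosts, and for 74 the host is a protein-coding gene. Most sit inside an intron (79), and 5 overlap an exon of a basic transcript of the host. Of the hosts, 39 hold 1 entry, 13 hold 2, 5 hold 3 and 1, the ribosomal protein gene Rpl4, holds 4. Annotated lengths run from 60 to 271 nt, and 4 entries are longer than the 200 nt limit of the RNA that was sequenced.

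The sequences were sorted by their boxes. A C box written TGATG in the first 20 bases with CTGA in the last 15 bases was found in 53 entries, and ACA 3 bases from the end of a sequence of at least 110 bases in 23, which leaves 21 with neither. With the longer C box TGATGA, 36 entries passed and 38 had neither pair. Only the annotated strand was read, TGATG is contained in TGATGA, and the short form was chosen after the sequences had been seen. The TGATG pair stood in 23.0% of all 1507 GENCODE snoRNA transcripts, in 84.7% of the 98 named Snord and in 0.132% of 58200 windows of 80 bases from protein-coding transcripts. The ACA ending stood in 83.3% of the 42 transcripts named Snora and in 1.65% of windows of 135 bases. A match describes the letters and does not show that a box is used.

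The following GENCODE M21 sequences are shown because the results below turn on them, with the C and D boxes or the ACA in capitals. The first 4 are abundant C/D entries from introns of Rpl4, the non-coding gene Zfas1, Rabggtb (a subunit of Rab geranylgeranyl transferase) and Rpl7a. Their positions are chromosome 9, 64177123 to 64177193, plus strand, chromosome 2, 167064998 to 167065086, plus strand, chromosome 3, 153911610 to 153911690, minus strand and chromosome 2, 26911261 to 26911334, plus strand. Gm22806, an H/ACA entry from an intron of the cell cycle gene Cks2, lies at chromosome 13, 51648199 to 51648334, plus strand.
Gm22455: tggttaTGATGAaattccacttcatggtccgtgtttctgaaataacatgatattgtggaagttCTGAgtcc
Gm23201: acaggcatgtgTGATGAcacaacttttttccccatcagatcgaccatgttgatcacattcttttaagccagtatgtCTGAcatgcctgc
Gm24494: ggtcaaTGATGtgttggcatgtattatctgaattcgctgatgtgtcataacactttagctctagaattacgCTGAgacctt
Gm23969: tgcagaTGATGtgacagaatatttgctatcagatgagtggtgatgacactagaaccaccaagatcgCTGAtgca
Gm22806: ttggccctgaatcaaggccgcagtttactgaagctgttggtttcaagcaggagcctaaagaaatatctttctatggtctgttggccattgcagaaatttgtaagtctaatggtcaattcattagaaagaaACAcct
The next 3 are near-identical copies on chromosome 9, shown because their levels differed between cell types although their sequences are nearly the same. Gm23017 (chromosome 9, 88598348 to 88598419, minus strand) lies in an intron of the non-coding gene 9430037G07Rik, Gm26135 (chromosome 9, 88857693 to 88857764, minus strand) in an intron of 9330159M07Rik, and Gm24463 (chromosome 9, 89075336 to 89075407, plus strand) has no annotated host. Counted from 1 at the 5′ end, Gm23017 differs from Gm24463 by G43A and from Gm26135 by G43A and C50A.
Gm23017: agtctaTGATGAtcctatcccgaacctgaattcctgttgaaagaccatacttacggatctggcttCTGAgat
Gm24463: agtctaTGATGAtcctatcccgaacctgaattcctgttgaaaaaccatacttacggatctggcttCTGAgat
Gm26135: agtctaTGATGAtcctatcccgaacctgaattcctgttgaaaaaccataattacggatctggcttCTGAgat

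Values are in RPM, read numbers that the authors scaled to a common library total, and an entry is called listed where its value is above 0. The gel cut of 120 to 160 bp includes the adapters, so short inserts were read. A value can come from fragments of a snoRNA and does not show that the whole snoRNA was present. The lowest value above 0 ranged from 5.16 to 59.1 RPM between libraries, 288 to 615 of the 1013 entries were listed per library, and the listed values summed to 73.9% to 97.4% of the RPM total. Read totals are not known, so no counting interval is given. Cell labels were checked against miRNAs. The 17 entries of the miR-290 to miR-295 and the miR-302 and miR-367 clusters summed to 19861 to 93945 RPM in mESC libraries and were at 0 in all mNPC and mCtx libraries. The 6 miR-9 entries summed to at most 752 RPM in mESC and at least 34835 RPM in the other two, and 18 entries of neuronal miRNAs to at most 945 RPM outside mCtx and at least 14699 RPM in it. Markers of endothelium and mesenchyme (9 entries) summed to 949 to 7629 RPM in mESC, 112 to 345 RPM in mNPC and 2192 to 4158 RPM in mCtx, and the 3 oligodendrocyte entries to at most 288 RPM in mNPC, 101 RPM in mCtx and 0 in mESC. The 2 entries of blood and microglia summed to at most 1774 RPM in mESC and 44.5 RPM in mCtx.

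The Gm snoRNAs were a chromatin population. Summed over the 97 entries, they reached 88424 ± 15791 RPM in mESC chromatin (mean ± SD, n = 3), with 52270.4 ± 11601 RPM in mNPC chromatin and 35051 ± 3183 RPM in mCtx chromatin. The nucleoplasm held 5761 ± 3442 RPM in mESC, 2213 ± 268 RPM in mNPC and 2319 ± 189 RPM in mCtx. In the cytoplasm the sum was 45.9 ± 79.5 RPM in mESC, 0 in all 3 mNPC libraries and 21.5 ± 1.10 RPM in mCtx. Every chromatin library stood above every nucleoplasm library of its cell type, and every nucleoplasm library above every cytoplasm library. As a share of all listed RPM the entries made up 11.5%, 6.03% and 4.24% of chromatin in mESC, mNPC and mCtx. As a share of snoRNA RPM these were 22.7%, 19.2% and 19.2%. All 239 snoRNA entries together fell in the same order of compartments. Their mean sums in chromatin, nucleoplasm and cytoplasm were 388291, 35630 and 3332 RPM in mESC and 274420, 18387 and 495 RPM in mNPC. In mCtx they were 181962, 12920 and 549 RPM. Per the labels, cytoplasm was taken up in Trizol LS and the nuclear fractions in Trizol, so reagent and compartment cannot be told apart. The values are shares of each library, so fewer cells of a type and less RNA per cell cannot be told apart.

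**Figure D1:**
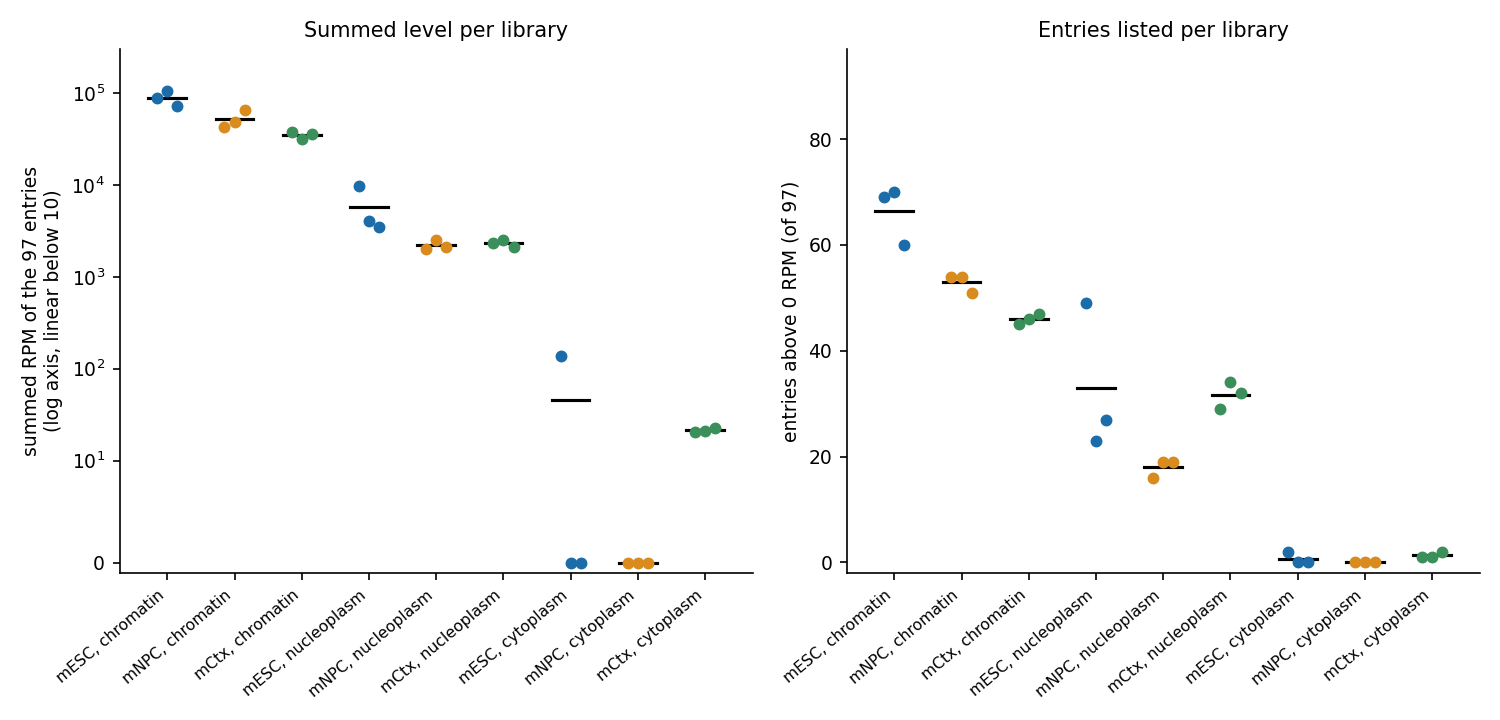
Left, summed RPM of the 97 Gm snoRNA entries in each library (log axis, linear below 10); right, the number of them above 0 RPM. Points are libraries and bars are group means of 3; chromatin libraries lie highest on the left, and 2 mESC and all 3 mNPC cytoplasm libraries lie at 0.

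The number of entries listed followed the same order of compartments. In mESC, 60 to 70 of the 97 were listed in a chromatin library, 23 to 49 in a nucleoplasm library and 0 to 2 in a cytoplasm library. The ranges were 51 to 54, 16 to 19 and 0 in mNPC, and 45 to 47, 29 to 34 and 1 to 2 in mCtx. In mESC nucleoplasm replicate 1 stood apart, with 49 entries listed and a summed 9725 RPM, against 23 and 27 entries in the other 2; without it, the 26 nucleoplasm calls over cytoplasm given below become 20. In chromatin, 26 entries were listed in all 9 libraries and 3 in none. The 5 highest entries held 36.1% of the summed level in mESC chromatin, 34.7% in mNPC and 39.5% in mCtx. The heat map of all entries shows this fall from chromatin to cytoplasm in most rows.

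**Figure D2:**
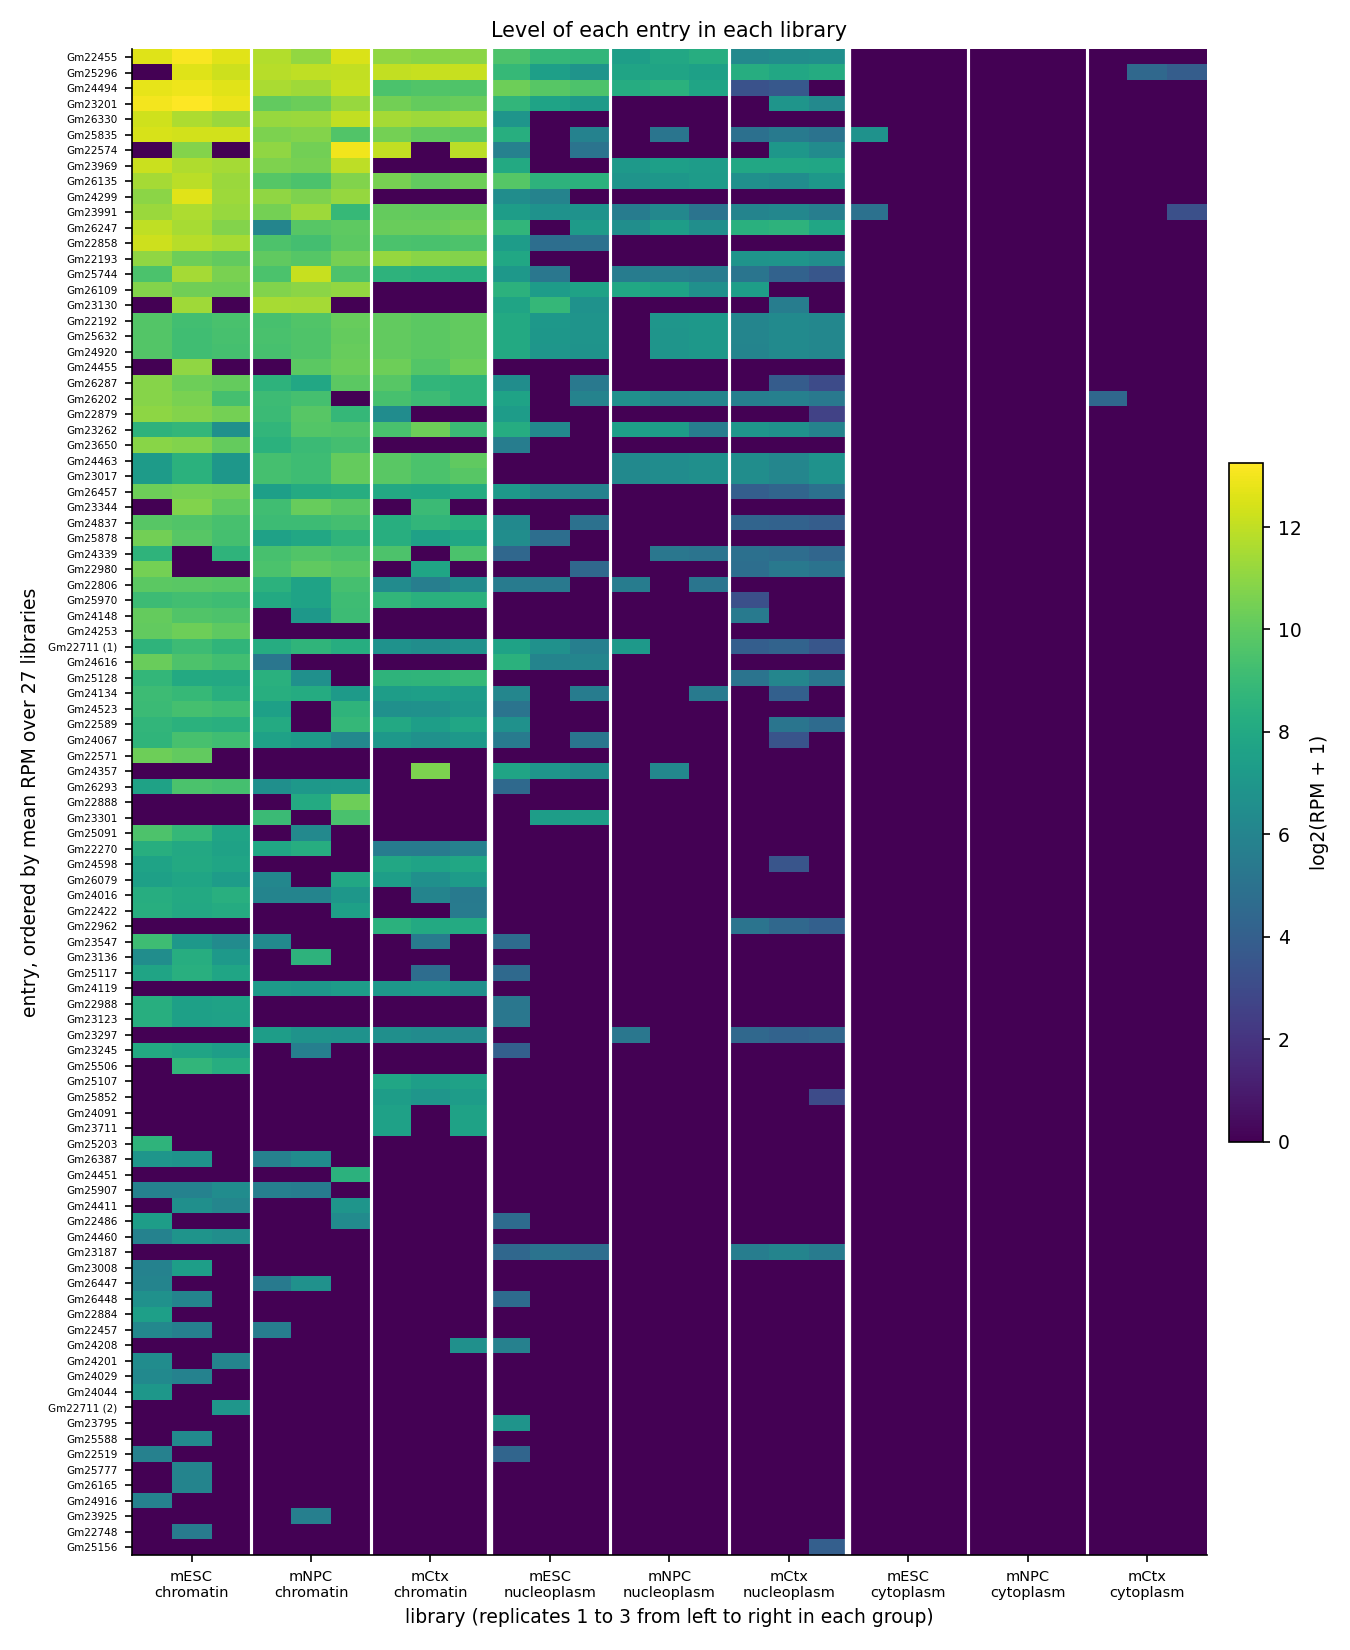
Level of each of the 97 entries (rows, ordered by mean RPM) in each of the 27 libraries (columns, 3 per group) as log2(RPM + 1), with dark violet for 0. The 9 cytoplasm columns hold 6 values above 0, and several rows change from a high value to 0 between libraries of 1 group.

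Differences were tested with limma on log2(RPM + 1) over the 851 entries that reached 1 RPM in 3 or more libraries, with Benjamini-Hochberg adjustment over all of them and calls at adjusted p below 0.05. Of the 97 Gm snoRNAs, 74 were tested and 23 were not. Against cytoplasm, 60 of the 74 rose in mESC chromatin, 53 in mNPC chromatin and 43 in mCtx chromatin, and none fell. Over all 851 entries, 24.9% were called higher in mESC, 19.3% in mNPC and 20.2% in mCtx, and 29.5%, 19.5% and 23.9% lower. The members' median log2 difference was 8.28 in mESC, 7.10 in mNPC and 6.74 in mCtx, beside 0 for all tested entries in each. Of the named snoRNAs, 55, 50 and 52 of 74 Snord entries (C/D guides) and 15, 11 and 7 of 18 Snora entries (H/ACA guides) were also called higher in mESC, mNPC and mCtx, and none lower. Since the cytoplasm was at 0 in all 3 libraries for 58, 53 and 40 of these called members, the fitted log2 differences of such members, and the medians above, depend on the pseudocount, and no linear fold is given. With the libraries centred to 1 median the mESC split became 46 higher and 7 lower, while 592 of all 851 entries were called lower.

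Chromatin over cytoplasm was called in all 3 cell types for 35 members, in 2 for 15 and in 1 for 21, and 3 of the 74 tested were called in none. The shares over all tested entries were not counted for this split. Gm22455, the Rpl4 intron entry shown above, was among the 6 highest called members in each cell type. Its chromatin values were 6350.0, 8912 and 6524 RPM in mESC, 3349, 2190.2 and 5842 in mNPC, then 2123, 1919 and 1986 RPM in mCtx, with 0 in all 9 cytoplasm libraries. In mCtx it was called over cytoplasm, with a size that the pseudocount sets (log2 difference 10.97, SE 0.30, limma adjusted p = 6.63e-17).

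Gm25296 lies in an intron of Rack1, a scaffold protein of the small ribosomal subunit, and was the highest member in mCtx chromatin. It had 4254, 4496 and 4479 RPM there and 3615, 4091 and 4273 in mNPC chromatin, but 0, 6347 and 4797 in mESC chromatin, so 1 mESC library was at 0 and the other 2 were high. It was called over cytoplasm in all 3 cell types, in mESC with log2 difference 8.29, SE 2.02, limma adjusted p = 0.0015, a call lost after centring and when only the 2 groups were fitted.

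Gm25835, an entry of 144 nt in an intron of the translation initiation helicase gene Eif4a1, had 5549, 5232 and 5217 RPM in mESC chromatin and 1425, 1085 and 1012 in mCtx chromatin. Gm22193, in an intron of the splicing factor gene Sf3b3, had 2318, 1904 and 1783 RPM in mCtx chromatin and 2094, 1307 and 1057 in mESC. Both were above every cytoplasm value of their cell type. In mCtx Gm22193 was called over its cytoplasm, all at 0 (log2 difference 10.96, SE 1.22, limma adjusted p = 2.96e-07).

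In cytoplasm, 6 of the 873 member values were above 0, spread over 4 entries. Gm25835 had 107 RPM in mESC replicate 1, and Gm23991, which overlaps an exon of 2410002F23Rik, had 30.3 RPM in the same library and 8.40 in mCtx replicate 3. Gm25296 had 21.3 and 14.3 RPM in mCtx replicates 2 and 3, and Gm26202, from the ribosomal protein gene Rpl17, had 20.5 RPM in mCtx replicate 1. All 4 were above 0 in most chromatin libraries. Leaving out mESC cytoplasm replicate 1 leaves no mESC cytoplasm value above 0.

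Nucleoplasm also exceeded cytoplasm, for fewer entries. Called higher were 26 of 74 in mESC (background 14%), 17 in mNPC (9.4%) and 23 in mCtx (13.5%). None were called lower, beside 5.17%, 6.11% and 11.8% of all entries. Of the named snoRNAs, 31, 20 and 34 of 74 Snord entries and 6, 3 and 2 of 18 Snora entries were also called higher, and none lower. These comparisons use the same cytoplasm libraries as those above. Gm24494, the Rabggtb intron entry, led the nucleoplasm of mESC and mNPC with 1298, 889 and 750.5 RPM and 291, 347 and 214 RPM. In mCtx nucleoplasm it had only 9.26, 11.6 and 0 RPM, below every library of the other two cell types. The highest entry in mCtx nucleoplasm was Gm26247, which overlaps an exon of 2410002F23Rik, with 344, 375 and 229.9 RPM. The nucleoplasm calls were sensitive to processing. Centring the libraries turned the mESC split to 5 higher and 20 lower, beside 14 and 494 of all 851 entries. Raising all low values to the highest library floor, 59.1 RPM, left 8, 5 and 2 higher in mESC, mNPC and mCtx. Of all 770 entries tested with this floor, 50, 52 and 48 were called higher.

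Chromatin exceeded nucleoplasm for 52 of 74 members in mESC, 49 in mNPC and 34 in mCtx, against backgrounds of 19.9%, 16.9% and 14.9% over all tested entries. Lower calls numbered 3 in mESC, 0 in mNPC and 2 in mCtx, with 30.9%, 10.9% and 17.2% of all entries called lower. Of 74 Snord entries, 48, 42 and 41 were called higher and 5, 3 and 4 lower. Of 18 Snora entries, 12, 9 and 7 were called higher and 0, 0 and 1 lower. Among members above 0 in all 6 libraries of the comparison, 8 of 13 were called higher in mESC, 9 of 12 in mNPC and 15 of 21 in mCtx. The share among all entries above 0 in all 6 libraries was not counted. Fold differences could be given for the members above 0 in all 6. Gm22455 was 13.3-fold higher in chromatin in mESC, 15.6-fold in mNPC and 23.0-fold in mCtx. The mESC means were 7262 ± 1432 RPM (SD, n = 3) in chromatin and 548 ± 187 RPM (SD, n = 3) in nucleoplasm. All 3 differences were called, in mCtx with log2 difference 4.52, SE 0.30, limma adjusted p = 1.27e-10. Gm23991 was 21.2-fold higher in chromatin in mESC, 29.2-fold in mNPC and 18.4-fold in mCtx, each called. With centred libraries both kept this direction, but only the mESC call of Gm23991 held. The counts of members called higher became 20 in mNPC and 18 in mCtx, beside 72 and 50 of all 851 entries.

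**Figure D3:**
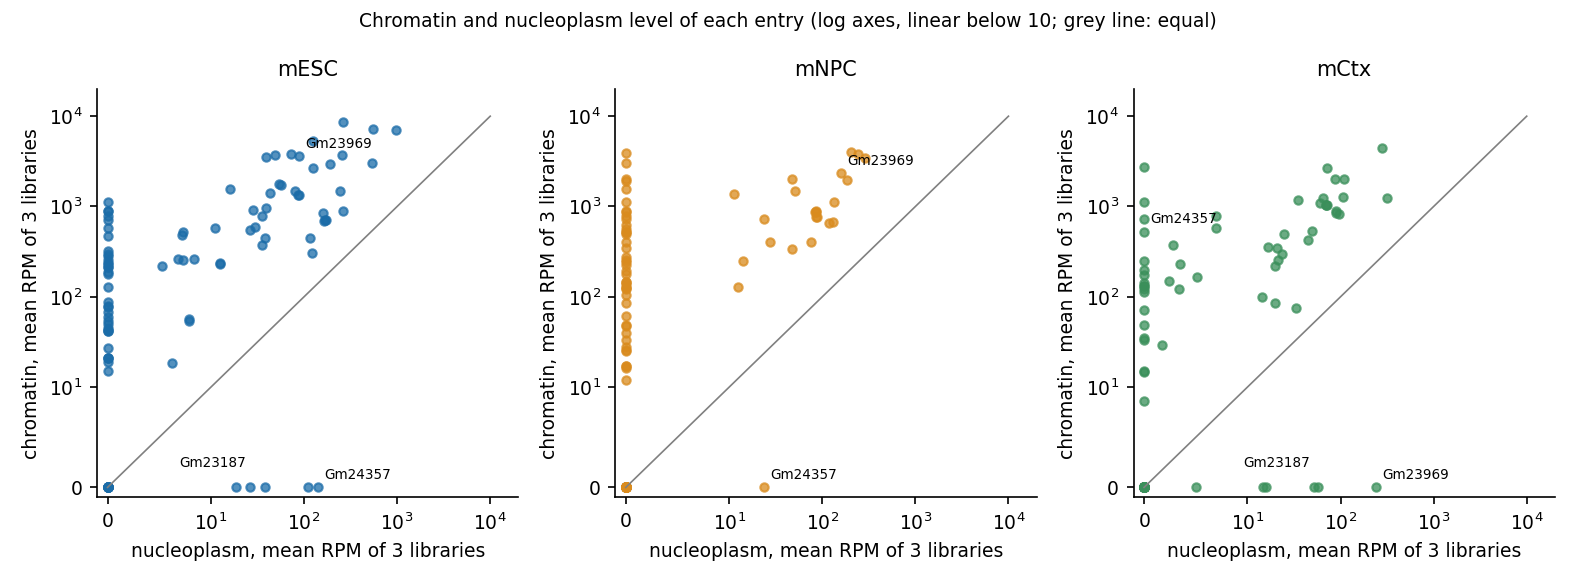
Mean chromatin RPM (vertical) against mean nucleoplasm RPM (horizontal) of each of the 97 entries in the 3 cell types, on log axes that are linear below 10, with a grey line where both are equal. Most points above 0 lie over the line; the members called lower in chromatin, Gm23969 in mCtx among them, lie at 0 chromatin RPM.

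A few entries went the other way. Gm23969, the Rpl7a intron entry, had 4685, 3262 and 2888 RPM in mESC chromatin and 1653, 1491 and 3907 in mNPC chromatin. In mCtx it was at 0 in all 3 chromatin libraries and at 243, 245 and 229 RPM in nucleoplasm. Chromatin was called higher in mESC (limma adjusted p = 4.52e-06) and mNPC (limma adjusted p = 0.0289) and lower in mCtx (log2 difference -7.91, SE 1.25, limma adjusted p = 4.84e-05). The difference between cell types was not tested. Gm23187, in an intron of Nop56, a core protein of C/D particles, was at 0 in all 9 chromatin libraries. Its nucleoplasm values were 20.4, 32.6 and 25.6 RPM in mESC and 48.8, 61.2 and 44.9 in mCtx, called over chromatin in both (in mCtx log2 difference -5.71, SE 0.21, limma adjusted p = 5.88e-15). All but 1 of the Gm23187 values above 0 lie under the highest library floor of 59.1 RPM, and with every lower value raised to that floor the 3 mESC calls became 0 and the 2 mCtx calls became 1.

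Gm24357, from an intron of Taf1d, a subunit of the RNA polymerase I selectivity factor, had 213, 119 and 90.5 RPM in the nucleoplasm of mESC and was at 0 in its chromatin (log2 difference -7.06, SE 1.88, limma adjusted p = 0.00367). In mCtx chromatin it was listed in 1 library, at 1582 RPM. Gm23301, from Rpl17, was called lower in mESC chromatin (log2 difference -4.92, SE 1.80, limma adjusted p = 0.0274), with 0, 163 and 169 RPM in nucleoplasm. That call was lost without nucleoplasm replicate 2 or 3 or any 1 of the chromatin libraries. In mNPC the same entry was called the other way, with 530.2, 0 and 688 RPM in chromatin and 0 in nucleoplasm (log2 difference 6.16, SE 1.80, limma adjusted p = 0.0127).

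Within chromatin, Gm snoRNAs were called higher and lower between cell types, with shares of lower calls in mNPC close to those of all entries. Of the 74 tested, 7 were higher and 23 lower in mNPC than in mESC, beside 15.9% and 29.0% of all entries. Against mNPC, 5 were higher and 16 lower in mCtx (16% and 11.9% of all), and without mCtx chromatin replicate 1 the 16 became 10, beside 89 of all 851 entries. Against mESC, 8 were higher and 31 lower in mCtx (22.8% and 29.3% of all). The 3 comparisons share chromatin libraries. The members' median log2 difference was -1.23, -0.16 and -2.10 in that order, beside 0 for all entries each time. Snord entries gave 9 higher and 22 lower of 74, 7 and 8, and 12 and 29. The splits depended on the scaling. With libraries centred to 1 median, mNPC against mESC gave 30 higher and 6 lower, beside 486 and 61 of all 851 entries. For mCtx against mNPC there were 3 and 31, beside 37 and 235 of all entries. Centring moved the median of all entries by 4.32 and -3.46 on the log2 scale in these 2 comparisons. The median tested entry was at 0 in 11 of the 27 libraries. Among these were mNPC chromatin replicates 2 and 3, while mNPC chromatin replicate 1 had a median of 32.5 RPM. The medians in mESC chromatin were 55.7 to 74.2 RPM. Centring subtracts the medians on the log2 scale, so the 4.32 and -3.46 draw on mNPC libraries with a median at 0. In chromatin the 9 endothelial and mesenchymal entries, 2 of them above 0 in each cell type, summed to 949 to 1536 RPM in mESC, 112 to 188 RPM in mNPC and 2192 to 2920.0 RPM in mCtx, and their part in these differences was not tested.

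Gm23201, the Zfas1 intron entry, had the highest single value of the set. Its chromatin values were 8382, 9790.2 and 7439 RPM in mESC, 1088, 1260.5 and 2357 in mNPC, then 1364, 1131 and 1203 RPM in mCtx, so the mESC libraries did not overlap the others. The mESC mean was 6.93-fold that of mCtx (log2 difference -2.79, SE 1.05, limma adjusted p = 0.031), a call lost when any 1 of the 6 libraries was left out. Gm24494 had 7039, 7619 and 6408 RPM in mESC, 3055, 2667 and 4584 in mNPC, then 737, 821 and 783 RPM in mCtx. Its mCtx level was lower than in mNPC (log2 difference -2.10, SE 0.58, limma adjusted p = 0.00893) and than in mESC (log2 difference -3.17, SE 0.58, limma adjusted p = 9.70e-05), while mNPC against mESC did not pass (log2 difference -1.07, limma adjusted p = 0.158) but did with a pseudocount of 10.

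Other entries were lower outside mESC. Gm22858 lies in an intron of Wdr43, a gene for a nucleolar protein of small-subunit assembly, and had 4796, 3629 and 2906 RPM in mESC, 759, 632 and 979 in mNPC, then 719, 707 and 759 RPM in mCtx. mNPC was lower than mESC (log2 difference -2.25, SE 0.43, limma adjusted p = 1.84e-04). Gm26457, in an intron of the elongation factor gene Eef1b2, had 1278, 1437 and 1337 RPM in mESC, 179, 277 and 307 in mNPC, then 253, 240.3 and 281 RPM in mCtx. mESC overlapped neither, and mNPC was lower (log2 difference -2.44, SE 0.31, limma adjusted p = 8.28e-07). The H/ACA entry Gm22806 fell from 949.5, 928 and 877 RPM in mESC to 82.3, 49.6 and 80.3 in mCtx, a 13.0-fold difference (log2 difference -3.71, SE 1.20, limma adjusted p = 0.0129). Its SE also draws on groups that mix 0 with higher values, such as mESC nucleoplasm with 43.9, 40.7 and 0 RPM. Gm26293, in Nop58, another core protein gene of C/D particles, had 201, 727 and 641 RPM in mESC, 97.4, 132 and 136 in mNPC and 0 in all mCtx libraries. The mNPC against mESC call of Gm26293 (limma adjusted p = 0.0478) was lost without mESC replicate 2 or 3 or any 1 of the mNPC libraries, and with no filter. After centring, the mNPC differences of Gm26457, Gm22858, Gm26293 and Gm24494 turned to higher, at 1.88, 2.08, 2.42 and 3.26 on the log2 scale, and the mCtx against mESC calls of Gm23201, Gm24494 and Gm22806 were lost at -1.92, -2.30 and -2.85. For mNPC chromatin replicates 2 and 3 the median used in this centring was 0.

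Of the copies on chromosome 9, Gm23017 and Gm24463 rose outside mESC, and Gm26135 fell, a direction that turned to higher in mNPC after centring (2.80). Gm23017 had 154, 359 and 128 RPM in mESC chromatin, 642, 555 and 1095 in mNPC, then 923, 735 and 905 RPM in mCtx, without overlap between mESC and the others. It was 3.57-fold higher in mNPC (log2 difference 1.92, SE 0.32, limma adjusted p = 3.90e-05) and higher in mCtx too (log2 difference 2.14, SE 0.32, limma adjusted p = 9.74e-06). Gm24463 had 155, 359 and 129.6 RPM in mESC, 642, 555 and 1095 in mNPC, then 931, 733 and 1041 RPM in mCtx, with the same deposited value as Gm23017 in 6 of the 15 libraries where both were listed. Gm26135, which differs from Gm24463 by C50A alone, had 2806, 3799 and 2452 RPM in mESC, 873, 719 and 1732 in mNPC, then 1472, 1080.3 and 1268 RPM in mCtx. It was lower in mNPC than in mESC (log2 difference -1.53, SE 0.33, limma adjusted p = 5.79e-04) and lower in mCtx (log2 difference -1.23, SE 0.33, limma adjusted p = 0.00337). After centring, none of the 3 copies was called for mCtx against mESC, with log2 differences of 3.01 for Gm23017, 3.07 for Gm24463 and -0.36 for Gm26135. In mESC nucleoplasm Gm26135 had 865, 376 and 370.3 RPM and the other two were at 0. Reads that match all 3 copies could be assigned to any of them, so the levels of all 3, Gm26135 included, are uncertain one by one.

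Some other near-identical entries had nearly equal values, and some did not. Gm22192 and Gm25632, identical over 85 nt in introns of Prrc2b, and Gm24920, in an intron of Pip5k1a, which differs from Gm22192 by G54A, were listed together in 17 libraries. In mCtx chromatin Gm22192 had 1081, 977 and 1082 RPM and Gm24920 had 1074, 964 and 1084 RPM. In all, 15 pairs of entries were at least 80% identical. Gm22711 has 2 entries in the table, of 135 and 133 nt, at 1 place on chromosome 11, and the shorter was listed in 1 library against 16 for the longer. Gm23301 and Gm26202, 83.1% identical in Rpl17, were both listed in 2 libraries, the first alone in 2 and the second alone in 15. Gm22270 and Gm26387, 94.7% identical in Rpl5, were both listed in 4 libraries and Gm22270 alone in 4 more.

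Some entries were listed in every chromatin library of 1 or 2 cell types and at 0 in the rest. Only in mESC this held for Gm24253, Gm22988, Gm23123 and Gm24460, 4.12% of the 97 beside 5.92% of all 1013 entries. Of these, Gm22988 and Gm23123 are 95.1% identical and had the same deposited value in 3 of the 4 libraries where both were listed, so they may share reads. Gm24253, with no annotated host and neither a complete C and D box pair nor the ACA ending, was the highest of them at 1061, 1298 and 1004 RPM. Only in mCtx it held for Gm25852, Gm22962 and Gm25107 (3.09% beside 4.54%), with 349.5, 266 and 279 RPM for Gm22962. No member was listed only in mNPC in this way. Gm26109, Gm26293, Gm23650, Gm23969 and Gm24299 were listed in all mESC and mNPC chromatin libraries and at 0 in mCtx, 5.15% beside 1.28% of all entries. Gm24299, a Taf1d intron entry, had 1976, 6542 and 2537 RPM in mESC and 2121, 1665 and 2271 in mNPC. Gm24119 and Gm23297 were listed in all mNPC and mCtx chromatin libraries and at 0 in mESC, 2.06% beside 3.26% of all entries.

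Entries of 1 host did not share 1 level or 1 pattern, as the plot by host shows. In Rpl4, Gm22455 was listed in all 9 chromatin libraries, whereas Gm22571 was listed only in mESC, with 1271, 1090.3 and 0 RPM. Gm23344 had 0, 1703 and 997 RPM in mESC and 583, 1138 and 904 in mNPC, and Gm23136 had 90.9, 303 and 139.7 in mESC. In Rpl7a, a large-subunit protein gene, Gm22879 had 2043, 1778 and 1441 RPM in mESC and was listed in 1 mCtx library. Gm24134, in the same gene, had 163, 181 and 158 RPM in mCtx, while Gm23969 was at 0 there. The 3 entries of Rpl7a summed to 5814 RPM in mESC, 3222 in mNPC, and no more than 197 RPM in mCtx, as group means.

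**Figure D4:**
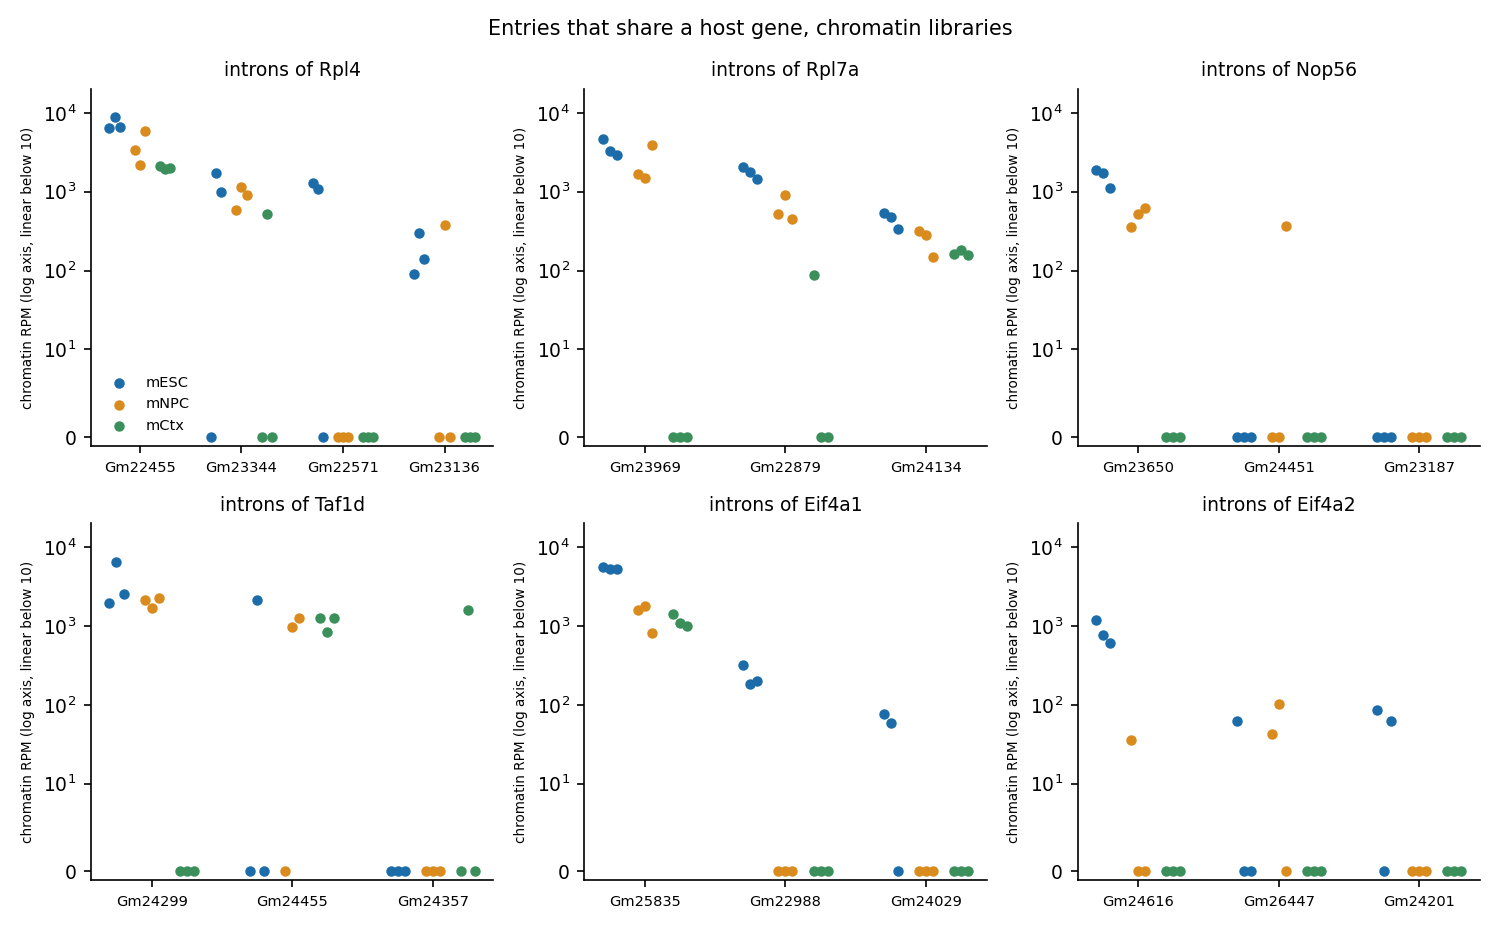
Chromatin RPM (log axis, linear below 10) of the entries in the 6 hosts that hold 3 or 4 of them; each point is 1 library, coloured by cell type. In Rpl7a, the mCtx points of Gm23969 lie at 0 while those of Gm24134 lie between 158 and 181 RPM.

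In Nop56, Gm23650 had 1878, 1715 and 1129 RPM in mESC chromatin and 352, 517 and 626 in mNPC, and 0 in mCtx (log2 difference -10.59, SE 0.89, limma adjusted p = 2.26e-09, mCtx against mESC). Gm24451 was listed in 1 library and Gm23187 in nucleoplasm alone. In Taf1d, Gm24455 had 1266, 848 and 1255 RPM in mCtx chromatin and was listed in 1 of 3 mESC libraries, at 2128 RPM. In Eif4a1, Gm25835 was listed in every chromatin library, while Gm22988 was listed only in mESC, in chromatin and 1 nucleoplasm library, and Gm24029 in 2 mESC chromatin libraries. Of the 3 entries of Eif4a2, a related helicase gene, Gm24616 led with 1198, 761 and 607 RPM in mESC chromatin. None of the Eif4a2 entries was listed in mCtx. For the 2 entries of Zfas1 the group means summed to 9510.3, 1847 and 1479 RPM in mESC, mNPC and mCtx chromatin.

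Hosts with 2 entries differed as widely. The 2 entries of 2410002F23Rik summed to group means of 5575 RPM in mESC chromatin, 2138 in mNPC and 2329 RPM in mCtx, and were the leading pair in mCtx nucleoplasm at 376 RPM. The pair of Nop58 summed to 1925, 649 and 575 RPM, and that of the ribosome assembly gene Ppan to 625, 140.0 and 123 RPM. In the large-subunit protein gene Rpl5 the sums were 335, 228 and 48.5 RPM. The pair of Ddx39b, an RNA helicase gene, had 691, 390.1 and 641 RPM. In Rpsa, a small-subunit protein gene, the pair was listed in mESC alone. These sums are descriptions and were not tested. The 23 entries that did not enter the tests were each listed in 1 or 2 of the 27 libraries; the highest value among them was 1282 RPM, for Gm22888 in Ubap2, and Gm23795 and Gm25156 were listed in 1 nucleoplasm library each.

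By the kind of host, the 20 entries in ribosomal protein genes (Rack1 counted with them) held 30.2% of the members' chromatin RPM in mESC, 36.6% in mNPC and 29.5% of it in mCtx. The 10 entries in genes for nucleolar proteins held 9.97%, 4.64% and 4.07%, and the 8 in translation factor genes 9.27%, 4.55% and 6.47%. The 10 in non-coding hosts held 16.7%, 11.1% and 11.3%. Entries in other protein-coding genes (36) held 30.9%, 40.9% and 44.2%. Entries without a host (13) held at most 4.46%. Of the 10 in nucleolar protein genes, 7 were at 0 in all mCtx chromatin libraries, beside 2 in mESC. Over all 97 entries, 44 and 16 were at 0 there.

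Levels per length are given by box class, first with the short C box TGATG, which was chosen after the sequences had been seen. The median C/D entry had 973 RPM per 100 nt in mESC chromatin, 712 in mNPC and 331 in mCtx. The median H/ACA entry had 31.6 RPM per 100 nt in mESC and was at 0 in the other two. The median of entries with neither the box pair nor the ACA ending was 42.2, 8.57 and 0. C/D entries held 90.0% of the members' chromatin RPM in mESC, 93.0% of it in mNPC and 90.9% in mCtx. With the longer C box TGATGA, C/D entries then held 61.4%, 63.4% and 69.7% in the same order. Entries with neither that pair nor the ACA ending held 33.5%, 32.3% and 25.3%, with medians of 302, 126 and 0 RPM per 100 nt. These include the entries that carry only the TGATG form of the pair. Of the 23 H/ACA entries, 9 were listed in all 3 mESC chromatin libraries, 3 in mNPC and 7 in mCtx. Length goes with the box class: C/D entries have a median length of 76 nt and H/ACA entries of 135 nt, so the 2 cannot be told apart here. Over the 97 entries, length and mean chromatin RPM had a Spearman rho of -0.39 for mESC, -0.46 for mNPC and -0.30 for mCtx, given as a description, since the points share libraries.

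**Figure D5:**
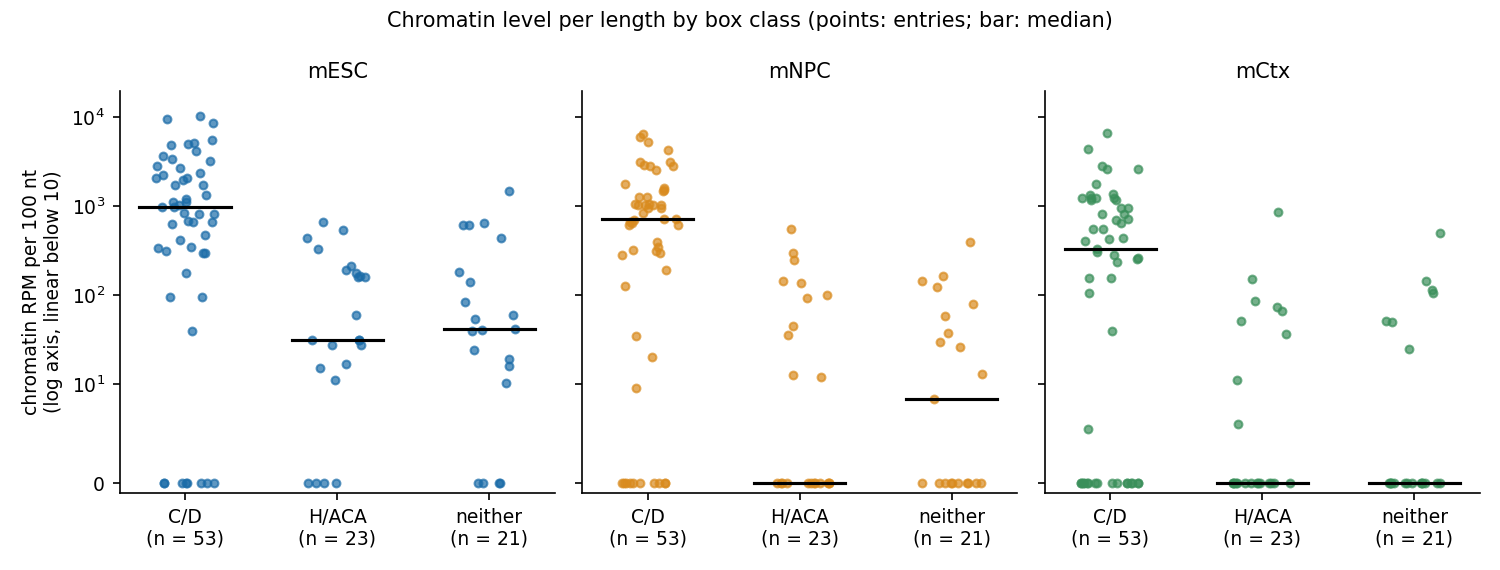
Mean chromatin RPM per 100 nt (log axis, linear below 10) of each entry by box class in the 3 cell types, with the median as a bar. The C/D median is the highest in each panel, and the H/ACA median is 0 in mNPC and mCtx.

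Several entries were at 0 in 1 library and high in another of the same group. Groups with both a 0 and a value above 0 numbered 130, in 85 members, and in 15 of them (12 members) the value was at least 10 times the highest library floor of 59.1 RPM. Gm22574, an entry of 60 nt in an intron of the respiratory chain gene Cox7c, had 2153, 1364 and 8181 RPM in mNPC chromatin but 4229.8, 0 and 3766 in mCtx and 0, 1789 and 0 in mESC. GENCODE M21 gives Gm22574 the gene type TEC and not snoRNA. Its mCtx call over cytoplasm (adjusted p = 0.0258 by limma) was lost when mCtx chromatin replicate 1 or 3, or any 1 of the mCtx cytoplasm libraries, was left out. Gm23130, in an intron of Rps12, had 2891, 2803 and 0 RPM in mNPC chromatin and 0, 2656 and 0 in mESC. The rule that assigned reads is not given in the sources used here, and its part in these zeros was not tested. Gm24148, in an intron of the nucleolin gene Ncl, shares 26 bases with the entry of mmu-miR-3535 on the same strand. It had 1099, 818 and 763 RPM in mESC chromatin and the miRNA entry 3446, 2611 and 2400.1.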

How the data were processed

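The authors deposited 1 table of RPM values per annotated small RNA entry, per the file headers; the sources used here give no aligner, counting rule or read totals. Per the labels' protocols, RNA below 200 nt was depleted of rRNA, and libraries of 120 to 160 bp were read as single reads of 100 bp. The members and lists were chosen with earlier results of these data known. Genes, hosts and sequences came from GENCODE M21 (GRCm38). limma 3.58.1 in R 4.3.3, with trend and robust variance, was fitted to log2(RPM + 1) of the 851 entries that reached 1 RPM in 3 or more of the 27 libraries, with 9 group means, 18 residual degrees of freedom and Benjamini-Hochberg adjustment within each of 12 comparisons. On simulated data for mESC chromatin against cytoplasm it called 34% and 38% of shifts of -2 and 2 on the log2 scale. Of shifts of -4 and 4 it called 74% and 70%, and 8 unchanged entries were called. Simulated entry means were set well above 0 before the shift. Groups at 0 throughout were therefore not modelled, and the simulation does not cover the calls against such groups. The fit shares 1 spread between all groups. Groups at 0 throughout are included, so SEs of high groups can be too small. Groups that mix 0 with high values are included too, so SEs of groups with close values can be too large. Alternatives were centring, a pseudocount of 10, a common floor, no or a stricter filter (10 RPM in 9 libraries), no trend, the 2 groups alone, a replicate block and leaving out each library. Members were named by rule: the highest called in each compartment and cell type, those called the other way, the largest differences between cell types, those listed in cytoplasm, those with a 0 beside high values, the 3 highest single values and hosts with 3 or more entries. Others named (Gm24253, Gm22962, Gm24148 and the copies among them) were chosen after their values were seen. Results for a few members are not reported here.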

Additional observations from a re-analysis of the deposited data

Results flagged for a closer look

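Gm23969, an entry in an intron of Rpl7a, went opposite ways between chromatin and nucleoplasm. In mESC and in mNPC every chromatin library was higher than every nucleoplasm library, and in mCtx every chromatin library was at 0 while nucleoplasm had a mean of 239 RPM. The mESC values were 4685, 3262 and 2888 RPM in chromatin and 264, 0 and 0 in nucleoplasm, and the mNPC values 1653, 1491 and 3907 and 141, 177 and 157. The difference between the cell types was not tested.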

How the results depend on the processing

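The tests used log2(RPM + 1) with RPM as deposited. No filter, a pseudocount of 10 and a fit without trend kept all 24 counts of calls within 1.5 times. Centring gave 5 higher (14 of all 851 entries) and 20 lower (494) for mESC nucleoplasm against cytoplasm, and 7 higher (19) for mCtx. For chromatin against nucleoplasm it gave 20 higher (72) in mNPC and 18 (50) in mCtx. For mESC chromatin against cytoplasm it gave 7 lower (592). Within chromatin it gave 30 higher and 6 lower for mNPC against mESC, beside 486 and 61 of all entries. For mCtx against mNPC it gave 3 and 31 (37 and 235 of all), and for mCtx against mESC 5 and 19 (150 and 117). It reversed Gm26457 (1.88), Gm22858 (2.08), Gm26293 (2.42), Gm26135 (2.80) and Gm24494 (3.26), all mNPC against mESC, where mNPC chromatin replicates 2 and 3 had a median at 0. With a common floor 8, 5 and 2 were higher for nucleoplasm against cytoplasm (mESC, mNPC, mCtx), beside 50, 52 and 48 of 770 entries. For chromatin against nucleoplasm 0 were lower in mESC (208 of 770) and 1 in mCtx (82 of 770). For mNPC against mESC 39 were lower in chromatin (280 of 770). The stricter filter tested 37 members and 555 entries in all, against 74 and 851. Of the 37, 34 were higher for mESC chromatin against cytoplasm (142 of 555). For chromatin against nucleoplasm 27 were higher (105 of 555) and 0 lower (211 of 555) in mESC, and 1 lower in mCtx (90 of 555). In chromatin 7 were lower in mNPC than in mESC, beside 193 of 555. For mCtx against mNPC 1 was higher and 4 lower (115 and 76 of 555), and for mCtx against mESC 3 and 9 (170 and 187). With the 2 groups alone, 16 of 48 tested members were higher for mESC nucleoplasm against cytoplasm, beside 69 of 666 entries. In chromatin 4 of 69 were higher for mNPC against mESC (100 of 611) and 10 of 68 lower for mCtx against mNPC (101 of 587). Otherwise the cause was not tested. Without each library in turn, mCtx against mNPC had 10 to 17 lower, and 143 of 144 counts stayed within 1.5 times. Scaled to the listed sum in place of the RPM total, the members' sums became 115128 in mESC and 42350 in mCtx chromatin. At or above 59.1 RPM, a mean of 50.3, 13.7, 43.3, 15 and 0 members were listed in mNPC chromatin and nucleoplasm and mCtx chromatin, nucleoplasm and cytoplasm. The labels do not name libraries of equal replicate number as pairs, and their deviations from group means correlated at -0.12 to 0.19. The replicate block kept all 24 counts within 1.5 times (60 higher for mESC chromatin against cytoplasm became 60), while Gm22574 (7.98, mCtx chromatin against cytoplasm) and Gm26293 (-1.91, mNPC against mESC) lost their calls. In mESC and mNPC nucleoplasm against cytoplasm and in chromatin of mNPC against mESC, every library correlated best with its own number, a hint from the data and not the design.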
